A study of Danio rerio with 4 samples.

Results

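The genes described here are the Notch ligands, the Notch receptors, the enzymes and adaptors that act on them, the nuclear partners of the receptor and the Her, Hey and Hes transcription repressors of the zebrafish embryo. They were taken by a pattern of gene names from an expression table of 31716 genes, and 51 rows matched. Of these, 35 carried a test in the authors' deposited table and 16 had too few alignments for one. The rows mibp and mibp2 matched by spelling alone, since they carry the name of a muscle integrin-binding protein and not of the ubiquitin ligase Mind bomb. That leaves 49 rows of the pathway, 34 of them tested.

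In Notch signalling a Delta or Jagged ligand on one cell binds a Notch receptor on its neighbour. The receptor is cut, and its inner part enters the nucleus, joins the DNA-binding protein Rbpj and Mastermind, and turns on genes that include several of the Her and Hey family. In the nervous system the pathway keeps progenitors from becoming neurons, in the presomitic mesoderm it couples the oscillating cells of the segmentation clock, and in vessels it limits sprouting and is needed for the arterial state. Not every Her gene is turned on by Notch: in zebrafish her3 is known to be repressed by it, and her5 and her9 for regulation apart from it.

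All embryos carried the transgene Tg(fli1a:egfp), in which fli1a regulatory sequence drives a green fluorescent protein (GFP), and were taken at 24 hours post fertilization. Dissociated and fixed cells were sorted into a GFP-positive (GFP+) fraction, labelled endothelial, and a GFP-negative (GFP-) fraction, labelled non-endothelial, with 2 RNA-seq libraries each. Levels are in FPKM, which scales mapped fragments by transcript length and by library size, and the table gives 1 value per gene and fraction, so no standard deviation can be given and the depth is unknown. Separate clutches for the libraries are not stated in the labels, so the p-values concern these libraries, and their spread may be technical.

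A gene was called when its q in the authors' deposited table was under 0.05. The transgene's own driver gene, fli1a, had 187 FPKM in GFP+ and 4.71 FPKM in GFP- cells, and it is known to mark blood and cranial neural crest cells beside endothelium. Of 7 endothelial marker genes, all larger in GFP+ cells, 4 were called higher, and their summed level was 491 against 11.6 FPKM. Markers of blood cells were larger in GFP+ cells too: 6 erythroid markers summed to 71187 against 854 FPKM, and the 5 rows of myeloid markers to 184 against 2.14 FPKM. Neural crest markers went both ways: of 4 rows dlx2a (75.9 against 19.3 FPKM) and prrx1b (46.3 against 6.86 FPKM) were called higher, sox10 (1.78 against 10.9 FPKM) lower, and foxd3 was near 0 in both fractions. They summed to 124 against 37.1 FPKM. In the other direction, 10 neural progenitor markers summed to 42.1 FPKM in GFP+ and 1423 FPKM in GFP- cells. In such bulk samples fewer cells of a type and less RNA per cell cannot be told apart.

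More of the tested Notch genes were lower than higher in GFP+ cells. By the q of the authors' deposited table, 18 of the 35 tested rows were lower, where 7.15% of all 7299 tested genes were, and 3 were higher, where 7.18% of all tested genes were. As shares of the tested rows these are 51.4% and 8.57%, and the second is near that of all tested genes. Without the her4, her12 and her15.1 rows, some of which have close copies that can share reads, 11 of 28 tested rows were lower. The 3 higher genes were the ligand dll4, the glycosyltransferase mfng and the repressor her6. Fold differences of the 18 lower rows ran from 3.40 for jag2b to 53.1 for dlb, with a median of 9.86. Of these rows, 17 stood at the smallest q in the authors' deposited table, 0.000958, and jag2b at 0.0144. That smallest q goes with the smallest p of the authors' deposited test, 5e-05. Genes outside the pathway, fli1a among them, share it, so it does not rank the rows. A test needed enough alignments, so a gene low in 1 fraction was tested through the other. Counted over all 51 rows, tested or not, 35 had the larger value in GFP- cells, 13 in GFP+ cells, and 3 stood at 0 in both. Without mibp and mibp2 these counts were 35, 12 and 2. Of all tested genes 46.9% had the larger value in GFP- cells, a share that leaves out untested genes.

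**Figure D1:**
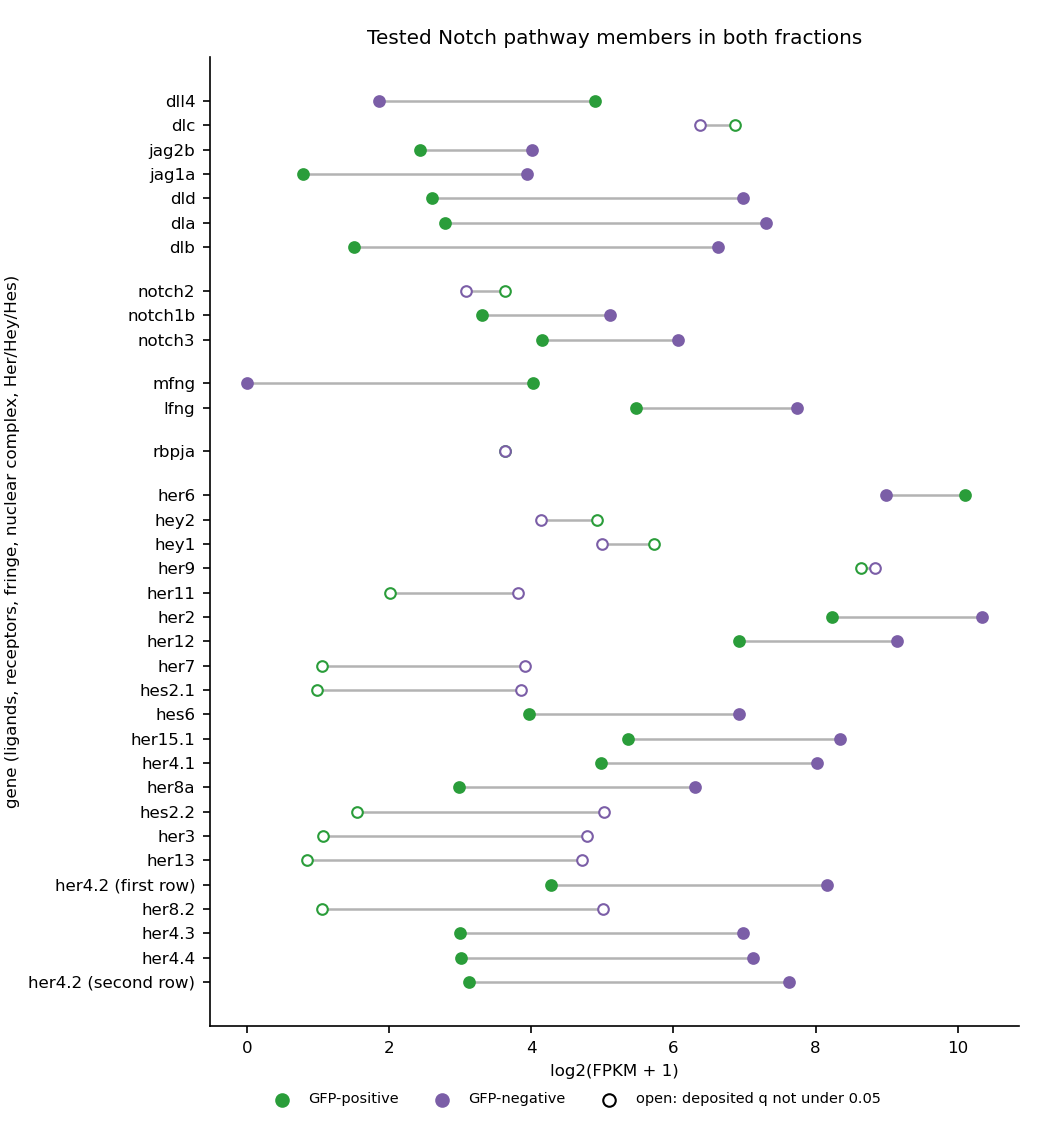
Level of the 34 tested Notch pathway rows as log2(FPKM + 1), with GFP+ cells in green and GFP- cells in purple, and filled points where the deposited q was under 0.05. The green point lies to the right in dll4, mfng and her6 among the called genes, and to the left in the 18 rows called lower.

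Ligand genes went both ways, with 5 of 7 tested called lower and 1 higher. Beside this count and those of the gene groups below stand 7.15% lower and 7.18% higher over all tested genes. The Delta genes dla, dlb and dld, whose known expression includes neural progenitors and newly formed neurons, had low values in GFP+ cells. The gene dla (chromosome 1, 54580210 to 54592934 in the Zv9 build) had 5.90 FPKM in GFP+ and 157 FPKM in GFP- cells. Its relative dld had 5.10 against 125 FPKM. The third, dlb, had 1.85 against 98.2 FPKM. These are 26.6-fold, 24.5-fold and 53.1-fold differences, and all 3 genes were called lower.

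Delta-like 4, dll4 (chromosome 20, 28274770 to 28287052), the ligand of arterial and sprouting endothelium, went the other way. It had 28.9 FPKM in GFP+ and 2.64 FPKM in GFP- cells, a 10.9-fold difference at q = 0.000958 by the authors' deposited table. The most abundant ligand of GFP+ cells was another gene, dlc (chromosome 15, 19425083 to 19429944), known both from the segmentation clock and from arteries. It stood at 115 FPKM there and at 81.9 FPKM in GFP- cells, and this 1.41-fold difference did not pass, at q = 0.523 by the authors' deposited table.

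Of the Jagged ligands, 2 were called lower and 1 had no test. The gene jag1a had 0.727 against 14.4 FPKM and jag2b had 4.43 against 15.06 FPKM, and these are the called genes. The paralog of jag1a, jag1b, had 7.41 FPKM in GFP+ and 5.32 FPKM in GFP- cells, without a test. Per length, the ligand genes summed to 169.5 FPKM in GFP+ and 499 FPKM in GFP- cells. Of these sums dla, dlb and dld made up 7.58% in GFP+ and 76.1% in GFP- cells, while dlc and dll4 together made up 85.0% and 16.9%. These shares were computed from the group values and carry no test.

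**Figure D2:**
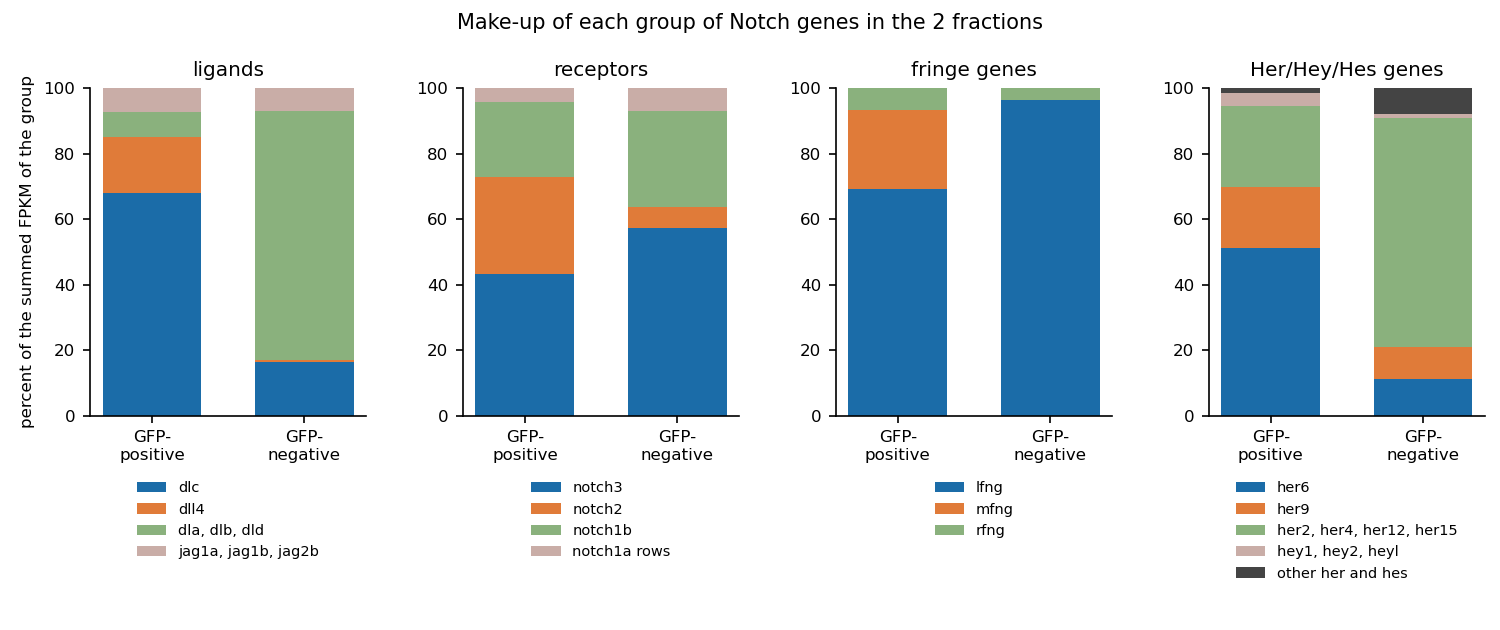
Share of the summed FPKM of each group of Notch genes that its members make up in each fraction, in percent. In GFP+ cells dlc and her6 are the largest pieces of the ligand and repressor sums, at 68.0% and 51.3%, and in GFP- cells they make up 16.4% and 11.1%.

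Of the receptors, notch3 and notch1b were lower in GFP+ cells and notch2 was not called. The receptor notch3 (chromosome 3, 54165558 to 54197430) had 16.8 against 66.0 FPKM, and notch1b had 8.92 against 33.5 FPKM, 3.94-fold and 3.75-fold differences. The receptor notch2 had 11.4 FPKM in GFP+ and 7.49 FPKM in GFP- cells, and its 1.52-fold difference did not pass, at q = 0.403 by the authors' deposited table. The order of levels differed between the fractions: notch3, notch2, notch1b in GFP+ and notch3, notch1b, notch2 in GFP- cells. No test compares genes with one another within a fraction. The name notch1a was carried by 3 rows that lay side by side on chromosome 21. None had a test. They stood at 0.854 against 5.45 FPKM, at 0.758 against 2.72 FPKM and at 0 in both fractions, so the level of notch1a as a whole cannot be read from any of them.

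Fringe enzymes add a sugar to the Notch receptor in the Golgi and alter which ligands it answers to. Of their 3 genes 1 was called lower, 1 higher and 1 had no test. Lunatic fringe, lfng (chromosome 3, 41912280 to 41923302), had 43.6 against 212 FPKM and was called lower, a 4.87-fold difference. Manic fringe, mfng (chromosome 22, 15397134 to 15426246), had 15.21 FPKM in GFP+ cells and was listed at 0 in GFP- cells, at q = 0.000958 by the authors' deposited table. No fold is given against that 0, which may be a failed estimate. Radical fringe, rfng, had 4.1 against 7.65 FPKM without a test. Although called lower, lfng was the most abundant fringe gene of GFP+ cells, at 69.3% of the fringe sum, against 24.2% for mfng.

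Of the nuclear and endocytic rows taken by the name pattern 1 had a test, and it was not called. Rows named for MIB1 and DTX4 fell outside the pattern, were called lower and are given among the other observations. The DNA-binding partner of the receptor, rbpja, stood at 11.4 FPKM in both fractions, at q = 0.996 by the authors' deposited table. Its paralog rbpjb had 5.05 against 8.13 FPKM and the coactivator gene maml3 3.74 against 4.52 FPKM, neither with a test. The Notch inhibitor numb had 4.38 against 2.47 FPKM, its relative numbl 1.75 against 3.77 FPKM and the ubiquitin ligase gene dtx2 3.32 against 1.73 FPKM, also without a test. The row named mib was at 0.236 against 0.476 FPKM.

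The Her, Hey and Hes repressors are basic helix-loop-helix proteins. Of their 24 rows 21 were tested: 10 were called lower, 1 higher and 10 were not called. Over all tested genes 7.15% were called lower and 7.18% higher. The genes related to mammalian Hes5, which in neural tissue follow Notch activity closely, fell together. The 5 rows named her4.1 to her4.4 had 6.96 to 30.6 FPKM in GFP+ cells and 126 to 286 FPKM in GFP- cells, 8.44-fold to 25.6-fold differences, and all 5 were called lower. The name her4.2 occurs in 2 of these rows, the second of which the gene name reference lists as her4.5. Their relatives her12 and her15.1 had 120 against 568 FPKM and 40.0 against 324 FPKM. The gene her2 (chromosome 11) was the most abundant Her gene of GFP- cells, at 1292 FPKM, and had 299 FPKM in GFP+ cells. All of these were called lower. Copies of the her4 and her15 genes are much alike and can share reads, so the division among them is uncertain. The her2 row shares its locus with aldh4a1, which had 2.19 against 1.60 FPKM.

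The her12 and her4 rows form a tandem cluster on chromosome 23, from 21739063 to 21765164. In the order of their position the fold differences were 4.73 for her12, 8.44 for her4.1, 15.6 for the first her4.2 row, 18.05 for her4.3, 19.6 for her4.4 and 25.6 for the second her4.2 row. Each row thus stood further below its GFP- value than the row before it. Because the her4 copies can share reads, the order among their rows is uncertain. The GFP+ levels did not keep falling: they dropped from 120 to 6.96 FPKM at her4.3 and were 7.05 and 7.70 FPKM in the last 2 rows. Further along lies si:ch73-21g5.7, listed by RefSeq (GRCz12tu) as a long non-coding RNA, with 9.67 against 1027 FPKM, a 106-fold difference. It was called lower, at q = 0.00701 by the authors' deposited table. This row lies outside the name pattern and was added by name, and other genes of the stretch were not listed. Differences between neighbouring rows were not tested.

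**Figure D3:**
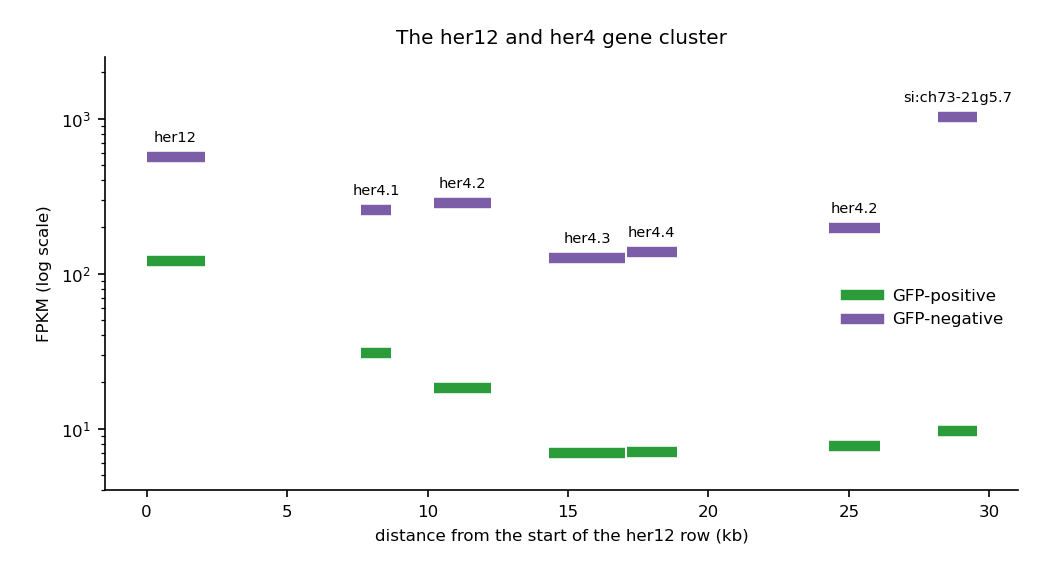
FPKM on a log scale of the rows of the her12 and her4 cluster against the distance from the start of her12 in kb, with each bar as long as the row's locus, GFP+ in green and GFP- in purple. The gap between the colours widens from her12 on the left, 120 against 568 FPKM, to si:ch73-21g5.7 on the right, 9.67 against 1027 FPKM. The si:ch73-21g5.7 row lies outside the name pattern and was added by name. The division of reads among the her4 rows is uncertain.

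Genes related to mammalian Hes1 and Hes4 were not among those called lower. The Hes1-related gene her6 (chromosome 6, 36329654 to 36331416) had 1098 FPKM in GFP+ and 507 FPKM in GFP- cells and was called higher. This 2.16-fold difference had q = 0.0450 by the authors' deposited table, close to the threshold. With the threshold at 0.01 her6 and jag2b lost their calls, which left 17 lower rows, where 4.51% of all tested genes were lower, and 2 higher rows, where 4.12% were higher. By level her6 ranked 126 among all 31716 rows in GFP+ cells and 181 in GFP- cells. The Hes4-related her9 had 398 against 455 FPKM, at q = 0.858 by the authors' deposited table. Together her6 and her9 made up 69.9% of the summed Her, Hey and Hes level in GFP+ cells and 21.1% in GFP- cells, whereas the her2, her4, her12 and her15.1 rows made up 24.7% and 69.9%.

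The Hey genes act in arteries and heart; hey2 is the zebrafish gridlock gene, needed for the aorta. Their tested members were larger in GFP+ cells without passing. The gene hey1 had 52.0 against 30.9 FPKM and hey2 had 29.3 against 16.6 FPKM, at q = 0.241 and q = 0.255 by the authors' deposited table. The third, heyl, had 1.08 FPKM in GFP+ cells against a listed 0, without a test. The list of 7 arterial markers, which holds dll4 and hey2, had 3 of 6 tested genes called higher and summed to 829 against 84.1 FPKM. Its other called genes were aqp8a.1, with 531 against 4.82 FPKM, and cxcr4a, with 49.5 against 9.21 FPKM. Not called were cldn5b, with 142 against 5.09 FPKM, and efnb2a, with 45.5 against 43.7 FPKM. Of 6 venous markers 4 were called higher, and the list summed to 1272 against 34.5 FPKM. Of these sums stab2, called higher, held 911 and 10.5 FPKM. The venous marker ephb4a went the other way, with 8.29 against 17.5 FPKM, and was not called.

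Further repressors, hes6 and her8a, were lower. Here hes6, an inhibitor of Hes1 in mammals, had 14.6 against 120 FPKM, and her8a had 6.91 against 77.9 FPKM. The row of hes6 shares its locus with itm2cb, which had 4.82 against 23.02 FPKM. A further 7 genes, her3, her7, her8.2, her11, her13, hes2.1 and hes2.2, had large ratios that did not pass. They had 0.797 to 3.03 FPKM in GFP+ and 13.0 to 31.5 FPKM in GFP- cells, and their fold differences, 4.3 to 31.5, overlap those of the called rows. Their q in the authors' deposited table ran from 0.104 to 0.557. Among them her7, which with its neighbour her1 on chromosome 5 runs the segmentation clock, had 1.085 against 14.04 FPKM. The gene her1 had 0.259 against 7.17 FPKM without a test.

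The GFP+ value relative to the GFP- value was not alike among the lower genes. For dla, dlb and dld the GFP+ value was 1.88% to 4.08% of the GFP- value, and for the her4 rows 3.90% to 11.9%. For her2, her12 and her15.1 it was 12.4% to 23.1%, and for notch1b, notch3 and lfng 20.5% to 26.6%. For hes6 and her8a it was 12.2% and 8.87%. The ligands jag1a and jag2b lay far apart, at 5.06% and 29.4%. The neural progenitor markers, among them sox2, sox19a and gfap, stood at a median of 3.15% (range 1.2% to 13.3%), with 8 of 10 called lower and none at 0 in either fraction. The neuron markers stood at a median of 6.92% (range 2.63% to 83.8%), with 3 of 6 tested called lower. They summed to 127 against 611 FPKM, of which tubb5, not called, held 111 and 132 FPKM. Of 9 presomitic mesoderm marker rows 3 were tested and tbx6 was called lower. Their median was 17.3% (range 4.16% to 46.9%) over the 6 rows above 0 in both fractions, and 10.96% with mespba, at 0 in GFP+ cells, counted. They summed to 30.7 against 103 FPKM, of which ripply1, not called, held 25.0 and 53.4 FPKM, with mespab and mespbb at 0 in both fractions. Of 5 skeletal muscle markers, at a median of 10.5%, 3 were called lower, and they summed to 330 against 1669 FPKM. Of 4 epidermis markers, at a median of 14.6%, 3 were called lower, and they summed to 163 against 1042 FPKM. These sets of Notch genes were formed after their values were seen. The part of these cell types in the Notch gene differences was not tested. Nor was the part of blood, arterial, venous or neural crest cells in the levels of dll4, mfng and her6.

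**Figure D4:**
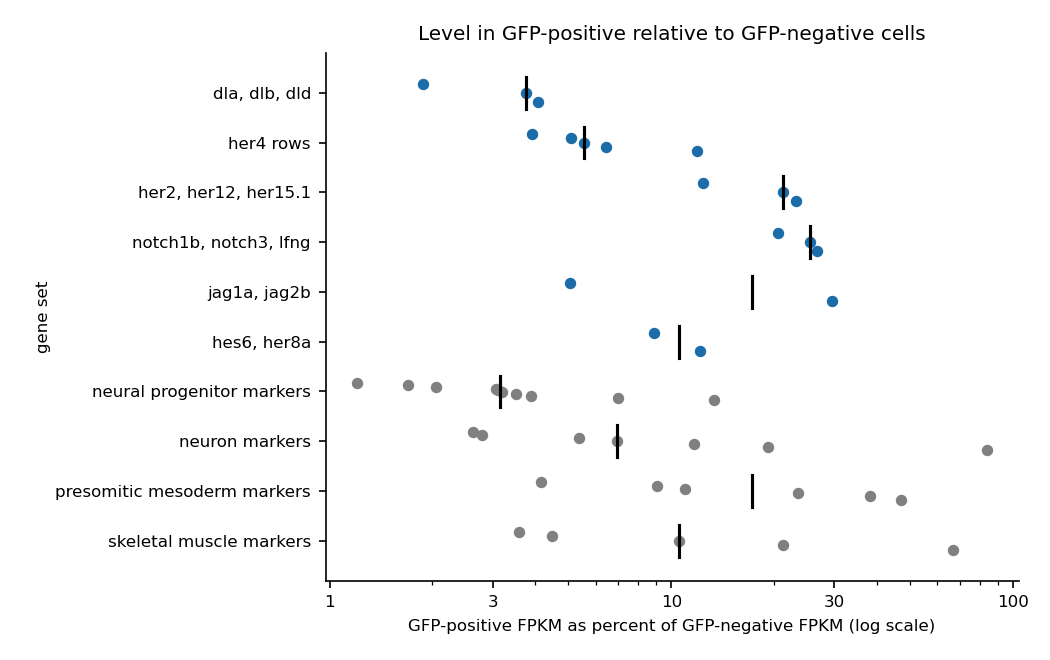
GFP+ FPKM as a percent of GFP- FPKM on a log scale, with 1 point per gene row and a black line at the median. Blue points are sets of Notch genes called lower. Grey points are neural progenitor, neuron, presomitic mesoderm and skeletal muscle markers above 0 in both fractions. The genes dla, dlb and dld lie between 1.88% and 4.08%, and notch1b, notch3 and lfng between 20.5% and 26.6%.

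Other genes of the pathway were counted from a list, which leaves out rows named for MIB1 and DTX4 that were called lower and are described among the other observations. Its 58 symbols, for receptor cleavage, glycosylation, feedback, turnover, nuclear cofactors, atypical ligands and other related repressors, matched 46 rows, of which 22 were tested. Of these 1 was called lower and none higher, and its share, 4.55%, is near the 7.15% of all tested genes. However, 14 symbols, 6 of them for nuclear cofactors, matched no row, so genes listed under other names are missing from this share. The row gro2, named for the corepressor Groucho, was not counted and was called lower, with 14.8 against 31.8 FPKM. It was named after its values were seen. The called gene of the list is nrarpb, an inhibitor that Notch itself turns on, with 8.41 against 41.6 FPKM. Its paralog nrarpa had 210.4 against 268 FPKM and was not called, at q = 0.695 by the authors' deposited table. None of the 6 tested genes of receptor cleavage was called, among them psenen of gamma-secretase with 91.1 against 101 FPKM and the protease gene adam10a with 46.0 against 25.6 FPKM. The median log2((FPKM + 1) ratio) of GFP+ over GFP- cells was -0.31 for this list, -2.85 for the 35 tested rows of the name pattern and 0.05 for all tested genes. These medians describe the lists.

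**Figure D5:**
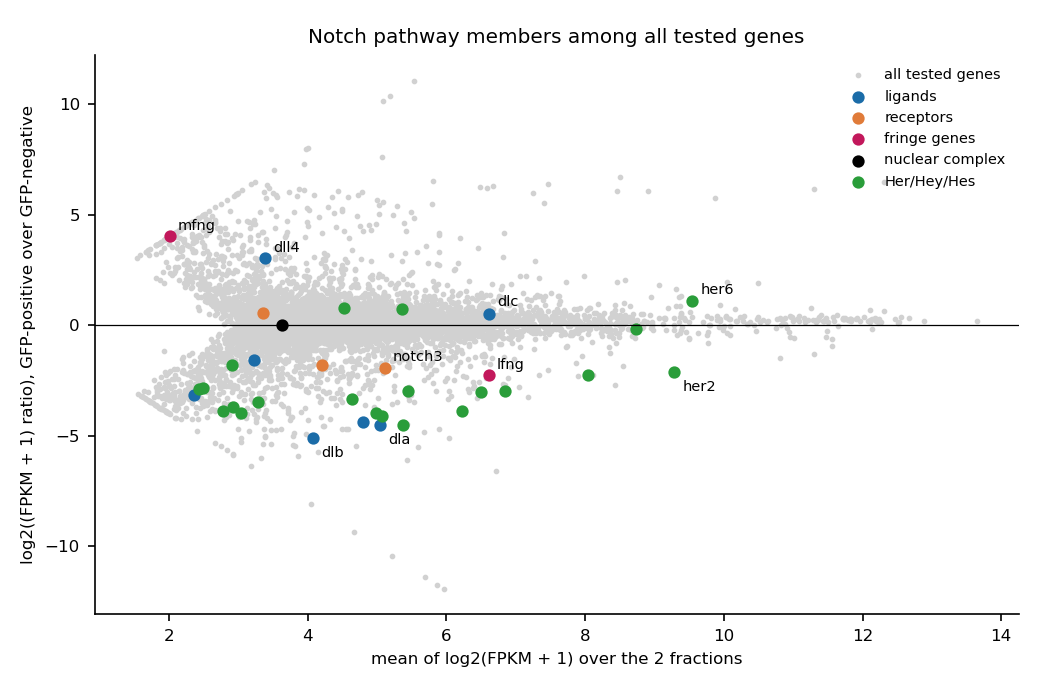
Log2((FPKM + 1) ratio) of GFP+ over GFP- cells against the mean log2(FPKM + 1) of the fractions, for all 7299 tested genes (grey) and the tested Notch pathway rows coloured by role. Most coloured points lie below 0, with dlb lowest at -5.12, and mfng and dll4 lie highest at 4.02 and 3.04.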

How the data were processed

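Per the submitters' processing notes, reads were processed with TopHat2 2.0.9 and Cuffdiff 2.1.1 on the Zv9 build; settings are not given in the sources used here. Per the file headers, the deposited table gives 1 FPKM value per gene and fraction, read here as Cuffdiff's estimate from the libraries of that fraction. It also holds a deposited log2 ratio, GFP-negative over GFP-positive, a test statistic, which is a score the authors deposited and which was not used, and the authors' deposited p-value and q-value. The deposited log2 ratio matched the FPKM columns within 1.5e-05, and the q-value matched a Benjamini-Hochberg adjustment of the p-value over 7299 tested genes within 5.3e-07.

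Fold differences, shares and log2((FPKM + 1) ratios) were computed from the FPKM values with Python 3.11.15 and pandas 2.3.3. The pseudocount of 1 FPKM understates the change of low genes. Calls are the authors' Cuffdiff test at a q under 0.05 over all tested genes. The code for calls and adjustment was tested on simulated data. All called members are named; other tested members may be, and lists of other pathway genes and of markers were matched by symbol in any case. The members and lists were chosen with earlier results of these data known. Loci are those of the Cuffdiff table; their counting base, 0 or 1, is not given. The gene name reference held 44 of the 51 IDs.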

Additional observations from a re-analysis of the deposited data

How the results depend on the processing

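With a threshold of 0.01 on the q of the authors' deposited table, 17 rows were called lower and 2 higher; her6 and jag2b were no longer called. A minimum log2 ratio of 1, minimum levels of 1 and 5 FPKM and a repeated adjustment over genes of at least 1 FPKM gave 18 lower and 3 higher. Without the her4, her12 and her15.1 rows, 11 of 28 tested rows were lower, down from 18 of 35, and 3 higher. Copies of the her4 and her15 genes can share reads. Rows alone in their locus, or with a name that occurs once, gave 16 lower and 3 higher of 33 tested in each case. Matching names without regard to case gave 21 lower and 3 higher of 38 tested. After seeing the data, leaving out mibp and mibp2 and adding her15.2 were also tried, giving 18 lower of 34 tested and 19 of 36. Over all tested genes 7.15% were called lower and 7.18% higher at a q under 0.05. The median log2 ratio of tested rows was -2.85, and -3.01 and -3.02 with pseudocounts of 0.1 and 0.01 FPKM. Centred on the median of all genes of at least 1 FPKM in both fractions, the log2 ratio of rbpja turned to -0.0079; the other 34 tested rows kept their sign. No paired analysis was possible because the table holds 1 value per fraction, and for the same reason no library could be left out. The depth is unknown, so no detection limit can be given.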

Other observations

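Some Notch genes carry names outside the pattern used. The row MIB1 (1 of 2), named for the Mind bomb ubiquitin ligase that sends Delta into endocytosis, had 23.9 FPKM in GFP+ and 59.8 FPKM in GFP- cells and was called lower, at q = 0.0151 by the authors' deposited table. The rows DTX4 (1 of 2) and DTX4 (2 of 2), named for a Deltex ubiquitin ligase, were called lower with 4.57 against 18.1 FPKM and 1.99 against 11.5 FPKM. A row whose ID the gene name reference gives as her15.2 lies beside her15.1 on chromosome 11 and was called lower with 45.5 against 445 FPKM. The repressor helt had 1.53 against 16.5 FPKM and was not called. The row notchl had 3.98 FPKM in GFP+ and 0.0824 FPKM in GFP- cells and had no test. These rows were named after their values were seen.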
